A study of Homo sapiens with 8 samples.

Results

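MEX3A, MEX3B, MEX3C and MEX3D are the 4 human genes of the MEX3 family, and all 4 were found among the 32066 genes of the count table by their Ensembl identifiers. They were chosen by family name around MEX3A, which was selected on its higher count in SOX11 than in control libraries, so the comparison of these genes between the groups is given as a description without a test. MEX3 proteins bind RNA through KH domains and carry a C-terminal RING finger, the fold of many ubiquitin ligases. They are the vertebrate relatives of MEX-3 of Caenorhabditis elegans, a translational repressor that sets cell fate in the early embryo. In mammals they move between nucleus and cytoplasm and associate with mRNA decay granules (P-bodies). They have been linked to mRNA turnover and to the ubiquitination of protein partners. MEX3A is known from intestinal stem cells, where it marks slowly dividing cells, and it is expressed in several carcinomas.

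RNA was sequenced from DU145, an established androgen-independent prostate carcinoma line taken from a brain metastasis. The groups were DU145 with exogenous SOX11 (4 libraries) and control DU145 (4 libraries), all grown in the same medium. SOX11 is an HMG-box transcription factor best known from neural development. The labels do not give the vector of either group, a clone, or separate cultures for the replicates, so p-values measure the spread between these libraries, which may be technical. Poly(A) RNA was made into stranded libraries, and the authors' raw counts summed to 15309037 to 16740516 per SOX11 library and 14641250 to 18706095 per control library.

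The introduced gene was present as labelled. SOX11 had 303 to 317 counts in the SOX11 libraries and 0 in all 4 control libraries, and its mean of 19.2 ± 0.942 CPM (TMM-scaled counts per 1e6 counts of the library; SD, n = 4) was at least 404-fold higher than the floor of 3 counts over the control group. The epithelial markers EPCAM, CDH1, KRT8, KRT18 and KRT19 summed to 1198 to 1204 CPM in SOX11 and 1494 to 1758 CPM in control libraries. The keratin genes KRT8, KRT18 and KRT19 were called lower (log2 fold changes -0.51, -0.42 and -0.68), while EPCAM (0.10) and CDH1 (-0.11) were not called. Markers of blood cells and endothelium stayed below 1 CPM in sum in every library. Those of fibroblasts summed to 5.83 to 7.70 CPM in SOX11 and 3.32 to 5.42 CPM in control libraries, most of it COL1A1 (called higher, edgeR adjusted p = 0.00053), while DCN and LUM were not analysed here. The library labelled SOX11 replicate 1 stood apart for luminal prostate genes that DU145 lacks. It held 95 counts of KLK3 and 161 of KLK2, against 0 to 2 in the other SOX11 libraries and 0 to 4 in the control libraries. The part of this RNA in the results was not tested. Values without that library are given for the MEX3 log2 fold changes, several list counts and the named genes that lost their call. Group means, levels per length, shares and the genes most like MEX3A include it.

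All 4 MEX3 genes lie on the minus strand and their main coding transcripts have 2 exons. On GRCh38 in the GENCODE 29 annotation, MEX3A (ENSG00000254726) spans chromosome 1, 156072013 to 156081998, and MEX3B (ENSG00000183496) spans chromosome 15, 82041778 to 82046141. MEX3C (ENSG00000176624) spans chromosome 18, 51174550 to 51218304, and MEX3D (ENSG00000181588) spans chromosome 19, 1554669 to 1568058. The genes differ most in the 3′ untranslated region, which is 4561 bases in MEX3A, 1382 in MEX3B, 1801 in MEX3C and 894 in MEX3D, while the coding lengths run from 1560 (MEX3A) to 1977 bases (MEX3C). No annotated gene overlapped any of them on either strand (0 for each). Their transcripts can be told apart by short reads. MEX3A and MEX3B shared 0 of their 31-base words with another member, and MEX3C and MEX3D shared 17 words, 0.228% and 0.596% of their own.

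The promoters are shown as a description, since SOX proteins recognise short A/T-rich motifs. The 250 bases before each RefSeq start (GRCh38.p14, minus strand, 5′ to 3′) are at chr1:156082466-156082715 (MEX3A), chr15:82046019-82046268 (MEX3B), chr18:51197682-51197931 (MEX3C) and chr19:1568326-1568575 (MEX3D). The RefSeq starts are not all those of the GENCODE spans given above. The MEX3C window lies inside the GENCODE span of MEX3C, whose upstream end is base 51218304, so its motif matches are not upstream of that span. The MEX3B window overlaps the upstream end of its span, base 82046141. The MEX3A and MEX3D windows lie upstream of their spans. Capitals mark matches to the SOX-type core ACAAT or to its reverse complement ATTGT.
MEX3A: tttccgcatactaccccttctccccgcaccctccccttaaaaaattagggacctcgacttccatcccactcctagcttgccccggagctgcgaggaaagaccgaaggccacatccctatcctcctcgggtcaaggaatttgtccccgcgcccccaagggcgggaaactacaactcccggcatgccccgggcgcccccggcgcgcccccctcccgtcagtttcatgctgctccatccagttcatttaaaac
MEX3B: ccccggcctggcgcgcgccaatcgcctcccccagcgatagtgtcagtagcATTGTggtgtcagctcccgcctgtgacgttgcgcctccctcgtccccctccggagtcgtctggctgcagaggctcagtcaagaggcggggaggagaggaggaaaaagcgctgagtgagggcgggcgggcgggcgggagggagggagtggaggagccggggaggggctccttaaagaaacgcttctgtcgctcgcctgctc
MEX3C: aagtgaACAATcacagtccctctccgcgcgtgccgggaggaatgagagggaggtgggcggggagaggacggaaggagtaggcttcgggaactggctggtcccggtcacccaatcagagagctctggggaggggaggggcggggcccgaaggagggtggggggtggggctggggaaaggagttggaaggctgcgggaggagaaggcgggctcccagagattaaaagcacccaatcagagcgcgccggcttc
MEX3D: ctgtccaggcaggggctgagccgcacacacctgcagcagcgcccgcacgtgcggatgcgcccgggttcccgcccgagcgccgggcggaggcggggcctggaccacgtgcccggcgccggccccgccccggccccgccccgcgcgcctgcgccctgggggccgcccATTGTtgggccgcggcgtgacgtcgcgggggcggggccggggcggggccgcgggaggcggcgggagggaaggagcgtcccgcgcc

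The core ACAAT was found in 3 of the 4 windows on either strand, in MEX3B, MEX3C and MEX3D, and in 24.6% of the 35116 RefSeq promoters cut to the same 250 bases. MEX3A had none, and whether SOX11 binds any of these windows was not tested. The longer SOX-type core ACAAAG was in 0 of the 4 windows and in 13.7% of all promoters. The GC box core GGGCGG was in all 4 windows and in 42.6% of all promoters, and CCAAT in MEX3B and MEX3C and in 32.0% of all. All 4 motifs were searched on both strands, and none contains another. G and C made up 60.8% of the MEX3A window, 68.0% of MEX3B, 65.6% of MEX3C and 84.0% of MEX3D, against a median of 58.0% over all promoters. The MEX3A window also holds the most upstream annotated start of LMNA, at base 156082573 on the opposite strand.

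MEX3A was the member that differed most between the groups. Its TMM-scaled level in SOX11 replicates 1 to 4 was 46.1, 44.9, 45.8 and 49.7 CPM, against 17.9, 17.1, 19.3 and 18.3 CPM in control replicates 1 to 4. The lowest SOX11 library stood far above the highest control library, and the 4 libraries of each group lay close together. The mean was 46.6 ± 2.08 CPM in SOX11 and 18.2 ± 0.922 CPM in control libraries (SD, n = 4 each), a log2 fold change of 1.36 ± 0.0570 (SE), or 2.57-fold. Raw counts were 749 to 764 in SOX11 and 265 to 317 in control libraries, so no MEX3A value rests on few reads. Of the 15665 genes tested, 0.428% had a larger log2 fold change.

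MEX3B, which in mammalian cells has been linked to innate immune signalling, was measured at a lower level. It had 10.6, 10.6, 11.2 and 9.82 CPM in the SOX11 libraries, against 7.14, 6.59, 8.09 and 7.54 CPM in the control libraries. The groups did not overlap: the highest control library, replicate 3, lay below the lowest SOX11 library, replicate 4. Its log2 fold change was 0.53 ± 0.0949 (SE), and its counts of 109 to 184 per library make it less precise than MEX3A.

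MEX3C, an RNA-binding ubiquitin ligase linked to mRNA decay in human cells, was the most abundant member in control libraries. It had 45.3, 48.7, 44.1 and 44.8 CPM in the SOX11 libraries, against 36.4, 38.0, 36.5 and 35.8 CPM in the control libraries. The groups did not overlap, and its log2 fold change of 0.32 ± 0.0494 (SE) was the smallest of the family. In CPM, which does not correct for length, the MEX3A and MEX3C means were 46.6 and 45.7 in SOX11 and 18.2 and 36.7 in control libraries.

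MEX3D, known also as TINO and named for binding the AU-rich element of BCL2 mRNA, varied most among replicates. It had 10.8, 10.9, 12.6 and 10.3 CPM in the SOX11 libraries, against 8.35, 9.56, 7.34 and 8.16 CPM in the control libraries. The highest control library, replicate 2, came within 1 CPM of the lowest SOX11 library, replicate 4, and the groups did not overlap. The log2 fold change was 0.40 ± 0.0965 (SE), with a coefficient of variation of 8.99% in SOX11 and 11.0% in control libraries.

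**Figure D1:**
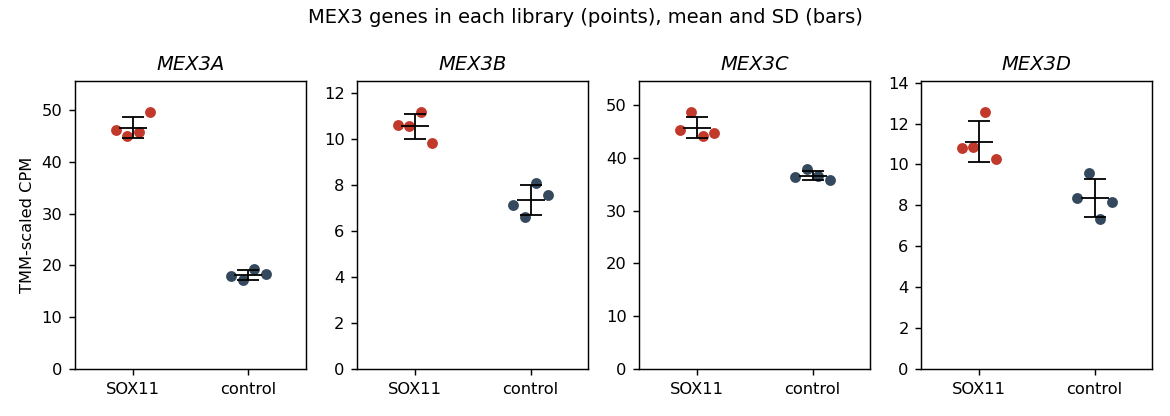
TMM-scaled CPM (vertical axis, from 0) of each MEX3 gene in the 4 SOX11 and the 4 control libraries; points are libraries, the bars the mean and SD. MEX3A sits at 44.9 to 49.7 CPM in SOX11 and 17.1 to 19.3 CPM in control libraries, and in each panel the SOX11 points lie above the control points.

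By the rule used for all genes (edgeR, adjusted p below 0.05), 4 of 4 members would be called higher, beside 10.3% of all 15665 genes tested that were called higher, 9.67% called lower and 20.0% called in either direction. The groups also did not overlap in 4 of 4 members, beside 10.6% of all tested genes with every SOX11 library above every control library. These shares are background only, since the family was chosen with this contrast known. Relative to all tested genes, 3.92% had a larger log2 fold change than MEX3B, 6.38% than MEX3D and 9.14% than MEX3C. Without SOX11 replicate 1, the library with KLK3 and KLK2 counts, the log2 fold changes were 1.37 for MEX3A, 0.53 for MEX3B, 0.32 for MEX3C and 0.42 for MEX3D. The differences were therefore as large without that library.

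**Figure D2:**
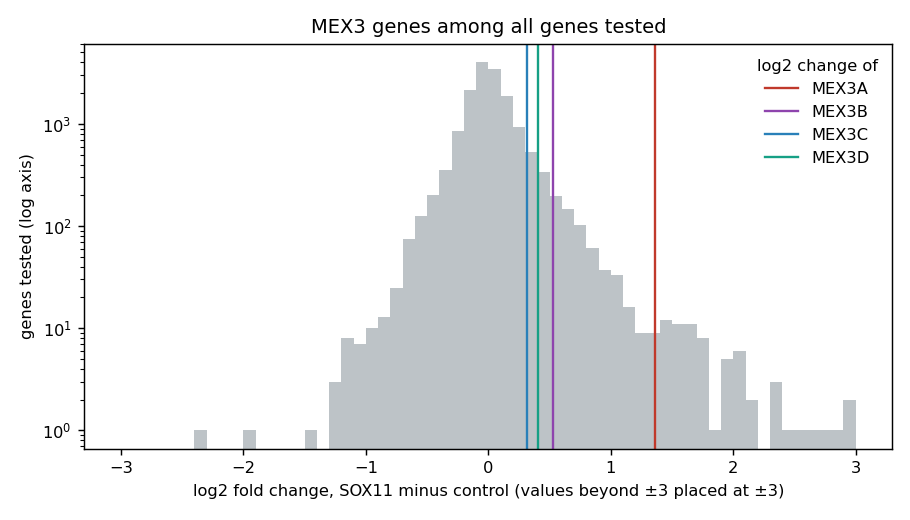
Histogram of the log2 fold change, SOX11 minus control, of all 15665 tested genes (log vertical axis), with vertical lines at the MEX3 genes. MEX3A, at 1.36, lies in the sparse upper tail, and MEX3B, MEX3C and MEX3D, at 0.53, 0.32 and 0.40, lie on the upper shoulder.

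Levels of different genes were compared per kilobase (kb) of the union of annotated exons. In SOX11 libraries MEX3A came first at 7.62 ± 0.339 CPM per kb, then MEX3C at 6.11 ± 0.273, MEX3D at 3.90 ± 0.351 and MEX3B at 2.41 ± 0.127 (SD, n = 4). In control libraries MEX3C came first at 4.90 ± 0.124 CPM per kb, followed by MEX3A at 2.97 ± 0.151 and MEX3D at 2.93 ± 0.322, which did not differ beyond their spread, and MEX3B at 1.68 ± 0.145. The order at the top in SOX11 libraries depends on the length taken for MEX3C. Its union of exons is 7481 bases, and with its longest annotated transcript of 3850 bases MEX3C stood at 11.9 CPM per kb in SOX11 and 9.52 in control libraries, above MEX3A in both. For MEX3A and MEX3D the lengths are the same, so their values are too.

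Summed over the family, the level per length was 20.0 ± 0.238 CPM per kb in SOX11 and 12.5 ± 0.175 in control libraries, a ratio of 1.61. MEX3A made up 38.0 ± 1.89% of that sum in SOX11 and 23.8 ± 1.41% in control libraries, while MEX3C made up 30.5 ± 1.44% in SOX11 and 39.3 ± 0.498% in control libraries. With the longest transcripts the MEX3A share was 29.5 ± 1.58% in SOX11 and 17.4 ± 1.07% in control libraries, so its share was larger in SOX11 libraries under either length. Among 15216 tested genes with a length, MEX3A stood at percentile 63.2 of level per length in SOX11 and 40.3 in control libraries.

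**Figure D3:**
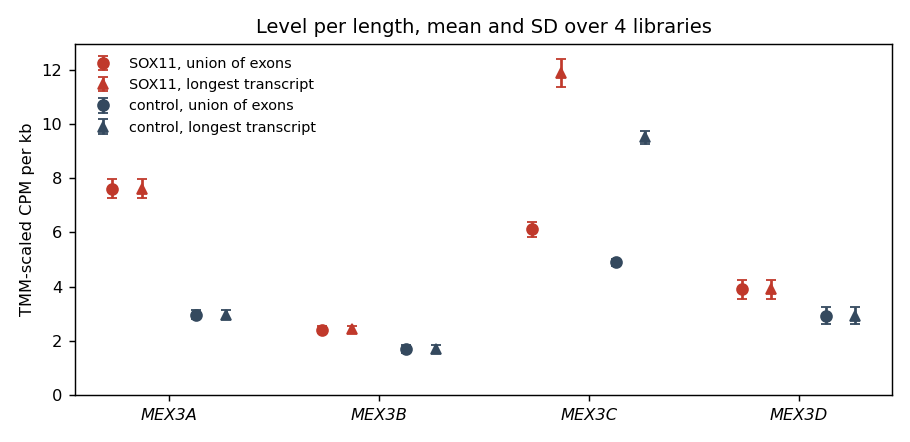
Mean TMM-scaled CPM per kb (vertical axis) with SD over 4 libraries for each MEX3 gene, SOX11 left of control; circles use the union of exons and triangles the longest transcript. MEX3A is at 7.62 in SOX11 and 2.97 in control libraries under both lengths, while MEX3C moves from 6.11 to 11.9 in SOX11 libraries when its length is changed.

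The genes whose pattern over the 8 libraries was most like that of MEX3A were found by the root mean square difference between centred log2 CPM values, which takes both shape and size. The 5 nearest were NEBL (0.115 on the log2 scale), TLE4 (0.118), DNM3 (0.145), GJA1 (0.161) and DNAI1 (0.162). NEBL encodes the actin-binding nebulette, TLE4 a Groucho corepressor, DNM3 a dynamin of membrane fission, GJA1 the gap junction protein connexin 43 and DNAI1 a subunit of ciliary dynein. TLE4 was at 27.9 ± 2.59 CPM in SOX11 and 9.75 ± 0.710 CPM in control libraries. DNAI1 had only 14 to 19 counts in SOX11 and 5 to 8 in control libraries, so its likeness is uncertain. The family members were farther from MEX3A, at 0.428 for MEX3B, 0.502 for MEX3D and 0.526 for MEX3C. These are descriptions, since all 8 libraries also carry the difference between the groups.

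The KH-domain proteins outside the family, which share its RNA-binding fold, changed in both directions. Of 29 tested members of a list of 32, 3 rose and 5 fell (edgeR, adjusted p below 0.05), or 27.6% beside 20.0% of all genes, with a median log2 fold change of 0.01 beside 0.00 for all genes. The oncofetal mRNA-binding protein IGF2BP3 fell most. It had 15.6, 17.1, 16.9 and 15.7 CPM in the SOX11 libraries, against 24.2, 22.7, 25.5 and 25.3 CPM in the control libraries (log2 fold change -0.57 ± 0.0658 SE, edgeR adjusted p = 1.05e-07). No SOX11 library reached the lowest control library. Its relative IGF2BP1 fell to 7.10 ± 0.865 CPM in SOX11, against 9.44 ± 0.553 CPM in control libraries (edgeR adjusted p = 0.004), and the poly(C)-binding protein gene PCBP1 fell by 0.13 on the log2 scale. KHDC4, a splicing-related KH protein, rose to 173 ± 4.09 CPM, against 146 ± 5.74 CPM in control libraries (log2 fold change 0.25, edgeR adjusted p = 3.1e-06). Without SOX11 replicate 1, 2 of the list rose and 4 fell, or 6 of 29, beside 16.4% of all genes called in that fit.

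Genes of mRNA decay and P-bodies, where MEX3 proteins have been found, were mostly not called. Of the 41 listed and tested, 6 rose and 1 fell, or 17.1% beside 20.0% of all genes, with a median log2 fold change of 0.07. At an unadjusted edgeR p below 0.05, 14 were higher and 2 lower, beside 2494 and 2445 of all 15665 genes tested. The Argonaute gene AGO4 had 25.4, 27.9, 28.8 and 26.8 CPM in the SOX11 libraries, against 22.7, 22.1, 21.7 and 22.4 CPM in the control libraries (log2 fold change 0.29 ± 0.0593 SE, edgeR adjusted p = 0.000479). The deadenylase genes CNOT6 (0.25) and CNOT8 (0.26) of the CCR4-NOT complex rose by about the same amount. ZFP36L2, which binds AU-rich elements and speeds mRNA decay, fell to 42.8 ± 1.92 CPM in SOX11, against 51.4 ± 2.49 CPM in control libraries (edgeR adjusted p = 0.000203). Without SOX11 replicate 1, 4 rose and 1 fell, or 5 of 41, beside 16.4% of all genes called in that fit.

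Other ubiquitin ligases that bind RNA, the second activity of the MEX3 proteins, gave 1 rise and 1 fall among 13 tested of 15 listed, or 15.4% beside 20.0% of all genes. The Roquin gene RC3H2 rose by 0.11 ± 0.0335 SE on the log2 scale (edgeR adjusted p = 0.0207). It was no longer called when SOX11 replicate 1 (edgeR adjusted p = 0.0651), control replicate 1 (0.0529) or control replicate 2 (0.0601) was omitted, or when no filter on low counts was used (0.0849). UNKL, a relative of the zinc finger gene UNK, fell by 0.17 (edgeR adjusted p = 0.0115). It was the only called gene of the list when SOX11 replicate 1 or control replicate 2 was omitted.

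RNA-binding proteins of stem cells, germ cells and neurons included the largest rise among the lists. Of 24 tested of 36 listed, 4 rose and 0 fell, or 16.7% beside 20.0% of all genes. At an unadjusted edgeR p below 0.05, 7 were higher and 1 lower, beside 2494 and 2445 of all 15665 genes tested. DESeq2 and limma-voom also had 4 higher and 0 lower at their adjusted p, beside 15.4% and 19.7% of all genes called. MSI1, the Musashi translational regulator of neural and intestinal stem cells, had 9.98, 8.38, 10.3 and 10.7 CPM in the SOX11 libraries, against 2.30, 3.62, 4.25 and 3.60 CPM in the control libraries. The groups did not overlap, and the log2 fold change was 1.51 ± 0.133 SE (edgeR adjusted p = 6.4e-10). NANOS1, whose product represses mRNAs together with Pumilio proteins, rose to 11.5 ± 0.448 CPM in SOX11, against 8.41 ± 1.01 CPM in control libraries (0.46 on the log2 scale). The splicing regulator gene RBFOX2 (0.18) and the second Musashi gene MSI2 (0.14) rose less, and MSI2 was no longer called when SOX11 replicate 1 (edgeR adjusted p = 0.0502) or control replicate 4 (0.0759) was omitted. Without SOX11 replicate 1, 3 of the 24 rose, beside 16.4% of all genes called in that fit. ELAVL2, ELAVL3 and ELAVL4 were not analysed here, and LIN28A and LIN28B had too few counts to be tested.

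Markers of intestinal and other epithelial stem cells, among which MEX3A is known, were sparse. Of 16 listed, 8 were tested, with 1 rise and 1 fall, or 25.0% beside 20.0% of all genes. LGR5, OLFM4, SMOC2, HOPX and CDX1 were not analysed here, and ASCL2 had at most 2 counts in any SOX11 library and 0 in the control libraries. TNFRSF19, a WNT-responsive receptor of LGR5-positive cells, rose to 1.35 ± 0.331 CPM in SOX11, against 0.728 ± 0.206 CPM in control libraries (log2 fold change 0.89 ± 0.273 SE, edgeR adjusted p = 0.0197). TNFRSF19 was not called when SOX11 replicate 1 (edgeR adjusted p = 0.0627), SOX11 replicate 2 (0.0808), control replicate 2 (0.0628) or control replicate 4 (0.0732) was omitted, nor with DESeq2 (adjusted p = 0.0674). The Polycomb gene BMI1 fell by 0.18 (edgeR adjusted p = 0.00347).

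Genes reported elsewhere as targets or partners of MEX3 proteins formed a list of 10, among them CDX2, RIGI, FOS, IGF1, TLR3, BCL2, CXCL2 and IL33, and 6 of the 10 were tested. None was called in edgeR (0 of 6), beside 20.0% of all genes, and 0 had an unadjusted p below 0.05. DESeq2 and limma-voom called 0, beside 15.4% and 19.7% of all genes. With only 6 genes, these counts cannot show whether the list differs from all genes. The log2 fold changes were 0.48 ± 0.369 (SE) for the RNA sensor gene RIGI, 0.32 ± 0.242 for FOS, 0.27 ± 0.284 for BCL2 and -0.08 ± 0.0914 for the chemokine gene CXCL2. RIGI, FOS and BCL2 had between 5 and 32 counts per library, so moderate differences were not detectable at this depth. CDX2, an intestinal factor whose mRNA MEX3A represses, had at most 1 count in any SOX11 library and 0 in the control libraries. IGF1 had at most 3 counts in any SOX11 library and 0 in the control libraries, TLR3 had 4 to 13 counts in SOX11 and 6 to 17 in control libraries, and IL33 was not analysed here.

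**Figure D4:**
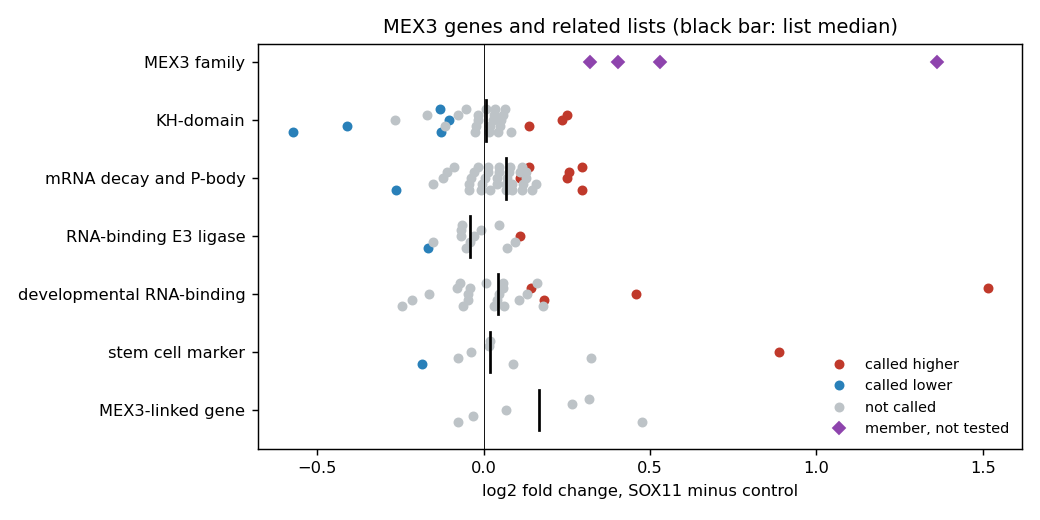
Log2 fold change, SOX11 minus control (horizontal axis), of the MEX3 genes (diamonds) and of the tested genes of each list (points; red called higher, blue called lower, grey not called), with the list median as a black bar. MSI1 at 1.51 and IGF2BP3 at -0.57 mark the ends of the lists.

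The chromosomal neighbours were measured to place each member in its surroundings. Of the 24 nearest tested genes, 3 on each side of each member, 5 rose and 4 fell, or 37.5% beside 20.0% of all genes. Next to MEX3A, LMNA, which encodes the nuclear lamins A and C and starts 0.575 kb from the end of the MEX3A annotation on the opposite strand, fell to 485 ± 24.8 CPM in SOX11, against 535 ± 21.5 CPM in control libraries (log2 fold change -0.14 ± 0.0350 SE, edgeR adjusted p = 0.00421). On the other side, the ubiquilin gene UBQLN4 (0.21) and SSR2 (0.15), a subunit of the translocon-associated complex, rose, while LAMTOR2 (0.09) was not called. Beyond LMNA, SLC25A44 (-0.01) was not called. SEMA4A, a semaphorin gene 65.4 kb away, rose by 1.11 ± 0.317 SE at 1.14 ± 0.352 CPM in SOX11, against 0.522 ± 0.213 CPM in control libraries, and its groups overlapped. SEMA4A had only 14 to 26 counts in SOX11 and 5 to 13 in control libraries. With SOX11 replicate 1 omitted, SEMA4A was no longer called (edgeR adjusted p = 0.0716). Without that library 4 of the 24 neighbours rose and 2 fell, beside 16.4% of all genes called in that fit.

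Near MEX3D, TCF3, an E-protein transcription factor gene 41.2 kb away, rose to 233 ± 12.3 CPM in SOX11, against 194 ± 6.70 CPM in control libraries (log2 fold change 0.26, edgeR adjusted p = 3.38e-06), while MBD3, 5.54 kb away, was not called (0.11 ± 0.0691), nor were REEP6 (0.06) and ADAMTSL5 (-0.25). PCSK4 (0.44) rose and the respiratory chain gene UQCR11 (-0.19) fell. PCSK4 was no longer called when SOX11 replicate 2 was omitted (edgeR adjusted p = 0.0676). UQCR11 was not called when SOX11 replicate 1, 2 or 3, or control replicate 2 or 4, was omitted (edgeR adjusted p = 0.0567 to 0.148), nor with DESeq2 (adjusted p = 0.0671). Near MEX3C, the methyl-CpG-binding gene MBD2 (-0.19) fell, at a distance of 2933 kb, while SMAD4 (0.03), ME2 (-0.01), ELAC1 (-0.14), POLI (0.06) and STARD6 (0.23) were not called. Around MEX3B, TLNRD1 (-0.20) fell with an edgeR adjusted p of 0.0477, and was called in only 1 of the 8 fits that each omitted a library, the one without control replicate 1 (0.0549 to 0.192 in the other 7). It was also not called with DESeq2 (adjusted p = 0.112), limma-voom (0.0524), upper quartile scaling (0.0572), no filter (0.0613) or a replicate block (0.0611). STARD5 (0.07), TMC3-AS1 (-0.28), EFL1 (-0.09), SAXO2 (0.16) and GOLGA6L10 (0.16) were not called.

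**Figure D5:**
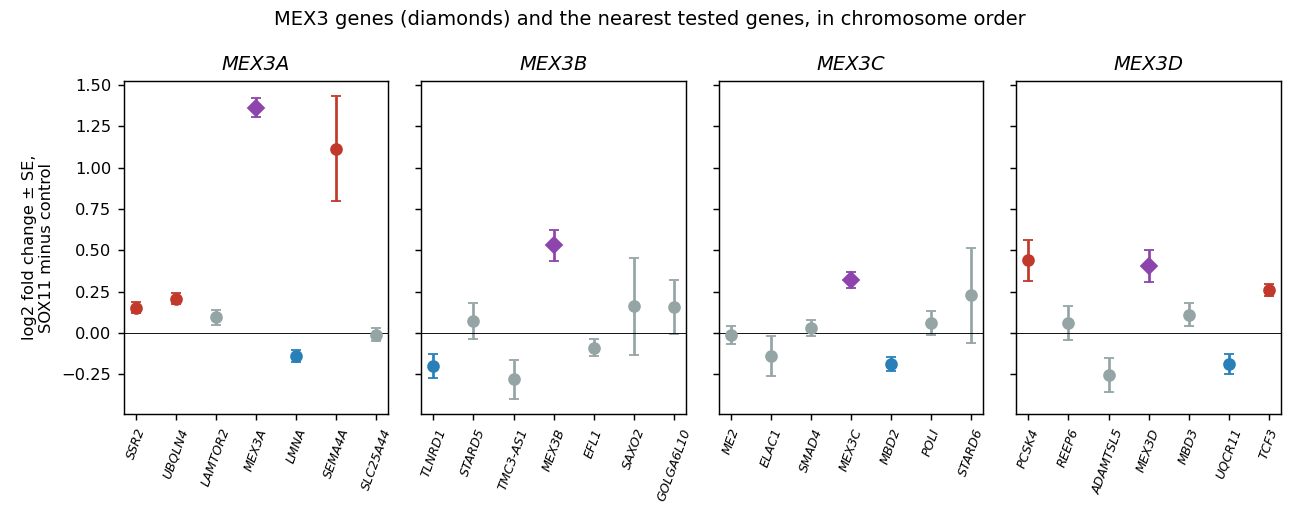
Log2 fold change with SE (vertical axis) of each MEX3 gene (diamond) and the 3 nearest tested genes on either side in chromosome order (circles; red called higher, blue called lower, grey not called). MEX3A at 1.36 stands above LAMTOR2 (0.09) and LMNA (-0.14), the genes beside it.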

How the data were processed

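Poly(A) RNA of 8 DU145 libraries was sequenced. The values deposited by the authors are raw, unnormalized counts for Ensembl genes. Per the submitters' processing notes, cutadapt, FastQC, STAR 2.7.0e and GRCh38 were used; how reads were assigned to genes, and with which annotation and strandedness, is not given there. Symbols matched 32053 of 32066 identifiers, and 30159 had a GENCODE 29 position.

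Genes passing filterByExpr (minimum count 10) were TMM-scaled and fitted in R 4.3.3 by edgeR 4.0.16 (glmQLFit with robust estimation, then glmQLFTest), with Benjamini-Hochberg adjustment over 15665 genes. Alternatives used other scalings and filters, DESeq2 1.42.0, limma-voom (limma 3.58.1), a replicate block and each library left out. Log2 CPM used a prior count of 2. The fit was tested on simulated data. Members and lists were chosen with earlier results of these data known. Named genes were up to 4 called members per list by adjusted p, the 3 nearest tested genes on each side of a member, and the 5 nearest to the MEX3A pattern; a few genes under this rule are not reported here. Within groups, libraries differed by more than counting noise (chi-square per degree of freedom 1.43 to 3.27), so none was counted as a repeat. Promoter sequences are from RefSeq, matched by symbol for 4 of 4 members.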

Additional observations from a re-analysis of the deposited data

Results flagged for a closer look

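Among 57 named genes, 1 control library lay far from the other 3 of its group in 4 genes, and in no MEX3 gene. The gap test used flags about 1 in 20 groups by chance. It was applied to 114 groups, except SOX11 in control libraries, which had no counts to compare. ZFP36L2 had 47.7 CPM in control replicate 1, against 52.3 to 53.0 CPM in the other control libraries. LAMTOR2 had 60.2 CPM in control replicate 3, against 52.9 to 54.0 CPM in the others, and was called higher without that library (edgeR adjusted p = 0.0477). TMC3-AS1 had 5.24 CPM in control replicate 2, against 6.38 to 6.57 CPM in the others, and was called lower without it (edgeR adjusted p = 0.0418). PCSK4 had 4.64 CPM in control replicate 2, against 4.34 to 4.39 CPM in the others.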

How the results depend on the processing

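The log2 fold changes of the 4 members moved by less than the spread between replicates under each alternative run. With a library left out they ran from 1.33 to 1.39 for MEX3A, 0.47 to 0.58 for MEX3B, 0.29 to 0.34 for MEX3C and 0.34 to 0.48 for MEX3D. The median over all genes shifted by less than 0.1 under every scaling. Of all genes, 3130 were called, 2407 with DESeq2 and 2466 to 3057 with a library left out. The longest transcript length put MEX3C at 11.9 CPM per kb in SOX11 and 9.52 in control libraries, by its construction. DESeq2 called 1 stem cell marker, and without a filter 2 markers of other cells were called, as more were tested. With a library left out, 1 to 3 RNA-binding ligases and 1 to 3 stem cell markers were called. Signs turned, with no call, for ME2 (-0.0512 to 0.0209), SLC25A44 (-0.0344 to 0.0127), SAXO2 (-0.13 to 0.30) and SMAD4 (-0.0053 to 0.0544) with a library left out. Where not stated, the cause was not tested. The replicate numbers did not pair the libraries (correlations of deviations 0.063, -0.068, -0.041 and 0.109, with 2 of 4 SOX11 libraries closest to their own number). A fit with the replicate number as a block called 2899 genes, with MEX3A at 1.36. Depth limits genes of few counts, such as RIGI and DNAI1.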
